A study of Mus musculus with 4 samples.

Results

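The transcripts described here are those of 5 genes of dystroglycan and its O-mannosylation, *Pomt1*, *Pomt2*, *Pomgnt1*, *Tmem5* (the older name of *Rxylt1*) and *Dag1*, taken by symbol out of 24419 genes with reads and TPM (reads per base of gene, scaled to the same total in each library). They were measured by RNA-seq in wild-type cells of the mouse embryonic stem cell (ESC) line R1, with 1 library per condition. The EpiLC library came from epiblast-like cells collected 72 h after induction, which began with a day in ESC medium free of LIF and went on in medium with a JAK inhibitor and FGF2. The ESC library came from the starting ESCs, which by the study's methods had spent the night before collection in ESC medium with PD0325901, CHIR99021 and LIF, although their own label names LIF alone. The EED226 library came from ESCs given 10 µM EED226, an inhibitor that binds the EED subunit of Polycomb repressive complex PRC2, in ESC medium with LIF for 48 h, and the DMSO library from ESCs given the vehicle in the same way. The ESC and DMSO libraries therefore differ in medium and time and were not treated as replicates.

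O-mannosylation begins in the endoplasmic reticulum, where a mannose carried by dolichol phosphate is joined to serine or threonine of a few proteins. Alpha-dystroglycan, the extracellular product of *Dag1*, is the best known of them. Its mannose is extended either by POMGNT1, which starts the core M1 branch, or by POMGNT2, which starts the core M3 branch. A phosphate, ribitol phosphates and a repeating xylose and glucuronic acid chain are built on core M3. That chain, called matriglycan, binds laminins and other proteins of the basement membrane, and defects of these enzymes cause muscular dystrophies with brain and eye malformations. In the peri-implantation embryo, dystroglycan is known as a receptor for the basement membrane on which the epiblast lies.

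Of the 5 genes, *Pomt1* and *Pomt2* encode the subunits of the enzyme that adds the first mannose, *Pomgnt1* the core M1 enzyme, *Tmem5* the xylosyltransferase that acts before matriglycan is built, and *Dag1* the substrate. In GENCODE M21 on GRCm38 (mm10), *Pomt1* spans chr2:32236590-32255005 on the plus strand, *Pomt2* chr12:87106861-87147968 on the minus strand, *Pomgnt1* chr4:116123840-116159849 on the plus strand, *Rxylt1* chr10:122078114-122097371 on the minus strand and *Dag1* chr9:108204634-108263958 on the minus strand. Exons of *Lurap1* on the opposite strand cover 641 bases, or 11.7%, of the exonic bases of *Pomgnt1*. Those of *Gstz1* cover 465 bases, or 5.85%, of *Pomt2*, and those of *Uck1* 4 bases of *Pomt1*, while *Dag1* and *Rxylt1* overlap no other gene. The kit marks strand, but whether the counting used strand is not stated, so reads in the shared bases cannot be assigned with certainty.

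The DNA before RefSeq start sites of these genes is shown because PRC2, the target of EED226, is known to bind promoters rich in CG dinucleotides. RefSeq on GRCm38.p6 gave 1 promoter window of 300 bases each for *Pomt1*, *Pomt2* and *Tmem5* and 2 each for *Pomgnt1* and *Dag1*. Below are the parts of the windows that lie outside GENCODE exons, 5′ to 3′ on the gene's own strand, with each CG in capitals. None is shown for the *Tmem5* window, the second *Pomgnt1* window and the other *Dag1* window, where exons left no long run. The stretches are chr9:108263959-108264208 (minus strand) for *Dag1*, chr2:32236390-32236589 (plus) for *Pomt1*, chr12:87147969-87148152 (minus) for *Pomt2* and chr4:116150268-116150517 (plus) for *Pomgnt1*. The *Pomgnt1* stretch lies inside the span that GENCODE gives the gene, before an internal RefSeq start. The first 3 belong to genes with higher levels in EpiLCs, and the last to the gene without, while *Tmem5*, also higher in EpiLCs, has no stretch here. A link between these sequences and the levels was not tested.
Dag1 stretch: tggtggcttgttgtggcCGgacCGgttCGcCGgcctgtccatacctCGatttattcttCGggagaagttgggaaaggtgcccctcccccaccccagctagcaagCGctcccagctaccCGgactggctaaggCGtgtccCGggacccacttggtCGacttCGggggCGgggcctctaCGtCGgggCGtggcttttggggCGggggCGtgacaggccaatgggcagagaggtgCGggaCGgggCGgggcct
Pomt1 stretch: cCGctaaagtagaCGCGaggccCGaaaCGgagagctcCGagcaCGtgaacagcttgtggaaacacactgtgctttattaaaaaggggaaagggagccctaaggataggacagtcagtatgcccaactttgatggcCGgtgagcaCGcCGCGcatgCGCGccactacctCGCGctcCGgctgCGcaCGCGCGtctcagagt
Pomt2 stretch: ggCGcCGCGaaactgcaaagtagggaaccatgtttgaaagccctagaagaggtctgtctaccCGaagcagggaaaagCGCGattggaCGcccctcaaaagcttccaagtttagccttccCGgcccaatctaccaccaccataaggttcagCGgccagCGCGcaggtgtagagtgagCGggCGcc
Pomgnt1 stretch: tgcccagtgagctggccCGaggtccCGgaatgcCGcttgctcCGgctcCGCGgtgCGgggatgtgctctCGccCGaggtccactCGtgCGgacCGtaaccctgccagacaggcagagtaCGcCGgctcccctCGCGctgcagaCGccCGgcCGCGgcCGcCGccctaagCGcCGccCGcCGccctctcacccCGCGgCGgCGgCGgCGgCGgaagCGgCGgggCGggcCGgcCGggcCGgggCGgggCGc

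The *Pomgnt1* stretch holds 41 CG dinucleotides in 250 bases, the *Dag1* stretch 21 in 250, the *Pomt1* stretch 20 in 200 and the *Pomt2* stretch 13 in 184. Over whole windows of 300 bases, the number was 51 and 3 for *Pomgnt1*, 47 and 30 for *Dag1*, 33 for *Pomt1*, 26 for *Pomt2* and 15 for *Tmem5*, against a median of 7 and an upper quartile of 20 over 32544 promoter windows. Every gene except *Tmem5* thus had a window above that upper quartile, and *Pomgnt1* had both the richest window and the poorest. The quartile is over single windows, and the share of all genes with such a window was not computed. The GC box GGGCGG, searched on both strands and itself holding a CG, was found in windows of *Pomt2*, *Pomgnt1*, *Tmem5* and *Dag1* and in 35.9% of all windows. CCAAT was in windows of *Pomt2* and *Dag1* and in 37.4% of all, CACGTG in windows of *Pomt1* and *Pomgnt1* and in 7.17% of all, and TATAAA in a window of *Pomgnt1* and in 13.6% of all. Each was searched on both strands, and a match on either counted. These matches describe the letters in the windows.

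The libraries held between 34440050 (EpiLC) and 47622558 (ESC) reads on genes. Most markers fitted the label of the EpiLC library, in that 6 of 6 naive markers stood below and 3 of 4 primed markers above the ESC library by 1.5-fold or more. Of all genes with at least 1 TPM in either library, 19.4% stood below and 40.9% above by that limit. The primed marker inside it was *Otx2*, with 67.1 TPM in EpiLCs, 55.6 TPM in ESCs and 90.8 TPM in DMSO-treated cells. For example, *Klf4*, a naive factor, had 6.03 TPM in EpiLCs and 161 TPM in ESCs, and *Fgf5*, a primed marker, 75.5 TPM in EpiLCs and 0.170 TPM in ESCs. Of the pluripotency factors shared by both states, 2 of 2 stood below as well, with 1109 TPM in EpiLCs and 2222 TPM in ESCs for *Pou5f1* and 135 TPM in EpiLCs and 310 TPM in ESCs for *Sox2*. In the DMSO library, 4 of 6 naive markers stood below and 4 of 4 primed markers above the ESC library by the same limit, beside 15.3% and 28.6% of all genes. The ESCs had been kept on embryonic fibroblast feeders, and the summed level of 9 fibroblast markers was 11.7 TPM in EpiLCs, 40.2 TPM in ESCs, 87.5 TPM in EED226-treated cells and 91.7 TPM in DMSO-treated cells. *Lum* had 0 reads in EpiLCs and no more than 2 in any library, and *Postn* had 0 reads in EpiLCs and 29 in ESCs. *Dcn* went the other way, with 102 reads in EpiLCs and 6 in ESCs. *Thy1* and *Pdgfrb* stayed inside 1.5-fold, with EpiLC over ESC at 0.890 and 1.17. Of the 7 fibroblast markers at 1 TPM in either library, 1 stood past that limit upward and 4 downward in EpiLCs against ESCs, and the part of feeder cells in the results was not tested.

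To see how the O-mannosylation genes differ between the pluripotent states, EpiLCs were compared with ESCs. *Dag1*, *Tmem5*, *Pomt1* and *Pomt2* had higher levels in EpiLCs, by 1.84- to 3.76-fold, and *Pomgnt1* did not. These 4 of 5 genes stood past a limit of 1.5-fold, a limit that 40.9% of the 13535 genes with at least 1 TPM in either library also passed upward. At 2-fold the counts were 2 of 5 genes and 29.5% of all. A limit was used in place of a test because 1 library per condition gives no spread between cultures. All intervals below are exact 95% intervals of the read counts and cover counting error only. In such bulk libraries, a change in every cell and a change in the share of expressing cells cannot be told apart.

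*Dag1*, the substrate, was the most abundant of the 5 transcripts in each library. It had 229 TPM in EpiLCs and 94.0 TPM in ESCs, from 20842 and 13187 reads, a ratio of 2.44 (interval 2.38 to 2.49). In EpiLCs 643 of 12996 genes with at least 1 TPM lay above it, and in ESCs 1993 of 12005. The EED226 and DMSO libraries, at 86.5 and 81.5 TPM, lay near the ESC library and far from the EpiLC library.

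*Tmem5*, the xylosyltransferase, showed the largest ratio of the 5. It stood at 81.6 TPM in EpiLCs and 21.7 TPM in ESCs, with 1716 and 703 reads and a ratio of 3.76 (3.45 to 4.11). Only 15.2% of the genes tested had a higher ratio. EED226- and DMSO-treated cells lay between these values at 30.9 and 30.6 TPM. The table gives *Tmem5* a length of 1378 bases, against 5614 exonic bases in GENCODE, so its level relative to the other genes depends on that length, while its ratio of TPM between libraries does not.

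The subunits of the first mannosyltransferase had similar ratios. *Pomt1* had 34.1 TPM in EpiLCs and 18.5 TPM in ESCs, from 1470 and 1230 reads, a ratio of 1.84 (1.71 to 1.99). *Pomt2*, the least abundant of the 5 in each library, had 16.3 TPM in EpiLCs and 8.18 TPM in ESCs, from 1257 and 974 reads, a ratio of 1.99 (1.83 to 2.17). Their intervals overlap, and the level of *Pomt1* over that of *Pomt2* was 2.09 in EpiLCs (1.94 to 2.26) and 2.26 in ESCs (2.08 to 2.46). *Gstz1*, which overlaps *Pomt2*, also had a higher level in EpiLCs, with 31.9 TPM against 12.1 TPM in ESCs, and its share in the *Pomt2* reads was not tested.

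*Pomgnt1*, the core M1 enzyme, had 33.6 TPM in EpiLCs and 38.3 TPM in ESCs. Its 1492 and 2624 reads gave a ratio of 0.877 (0.822 to 0.934), which is below 1 but inside the 1.5-fold limit. *Lurap1*, the gene overlapping it, had 31 reads in EpiLCs and 118 reads in ESCs. By TPM, *Pomgnt1* was the most abundant enzyme transcript in ESCs, whereas *Tmem5* was in EpiLCs. Levels of 1 gene over another depend on the lengths in the table, 1378 bases for *Tmem5* and 2912 for *Pomgnt1*. GENCODE has 5614 and 5463 exonic bases for them, and the intervals below do not cover this. The level of *Tmem5* over that of *Pomgnt1* was 2.43 in EpiLCs (2.27 to 2.61) and 0.566 in ESCs (0.520 to 0.616), and that of *Dag1* over *Pomgnt1* was 6.82 in EpiLCs (6.48 to 7.20) and 2.46 in ESCs (2.35 to 2.56). The subunits of the first enzyme also stood closer to *Pomgnt1* in EpiLCs, where *Pomgnt1* over *Pomt1* was 0.985 and over *Pomt2* 2.06, against 2.07 and 4.68 in ESCs.

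**Figure D1:**
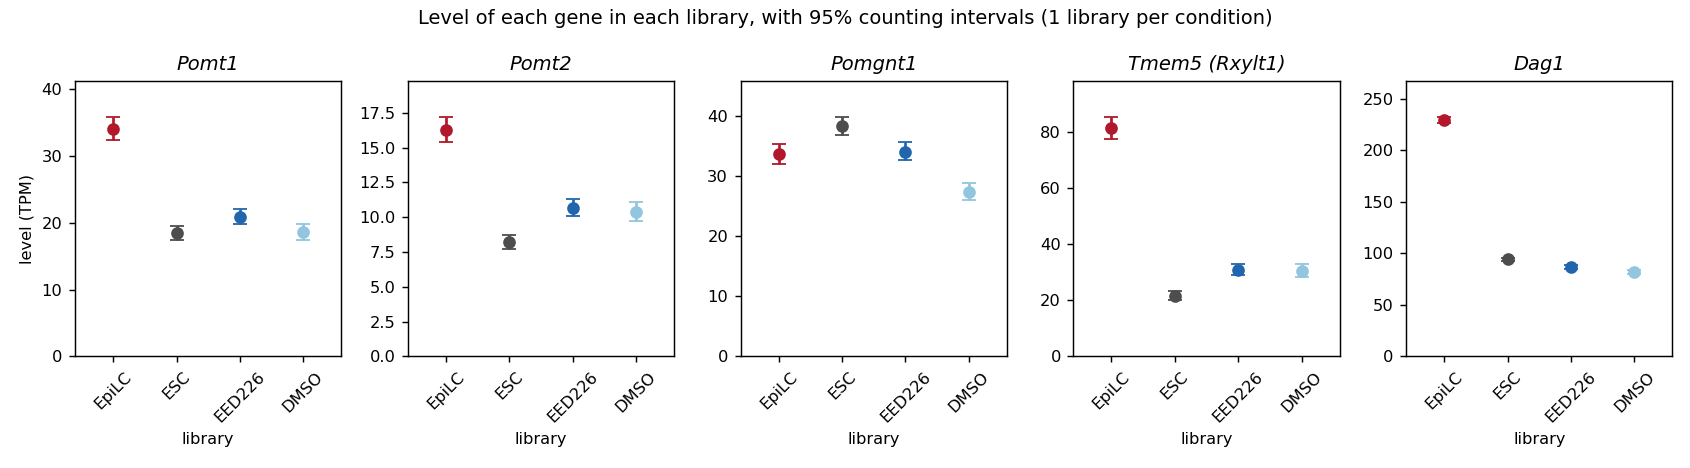
Level in TPM (linear axes from 0, each gene with its own scale) in the EpiLC, ESC, EED226 and DMSO libraries, with exact 95% counting intervals as bars and 1 library per point. *Pomt1*, *Pomt2*, *Tmem5* and *Dag1* are highest in EpiLCs, while *Pomgnt1* is highest in ESCs at 38.3 TPM.

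The order of the 4 libraries differed between the genes. EpiLCs came first for all but *Pomgnt1*. Neighbours in the order that could not be told apart by counting error were the DMSO and ESC libraries for *Pomt1*, the EED226 and DMSO libraries for *Pomt2* and for *Tmem5*, and the EED226 and EpiLC libraries for *Pomgnt1*. For *Dag1* no such neighbours were found, at a depth of 8560 to 20842 reads.

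The ratios depend on how the libraries are scaled. The median log2 ratio was 0.98 over the 5 genes and 0.33 over all genes tested (with 0.1 TPM added), so that most genes stood higher in EpiLCs on the TPM scale. With median-of-ratios size factors, which moved every log2 ratio down by 0.37, *Pomt1* fell inside the limit at 1.43-fold and 3 of 5 genes stayed past it upward, beside 30.7% of all genes upward and 29.7% downward (40.9% and 19.4% on the TPM scale). The ratio also grew with gene length, with a median log2 of -0.24 in the shortest of 20 length classes and 1.16 in the longest. Once the median of genes of like length in the table was taken off, *Pomt2* stood at 1.31-fold and *Dag1* at 1.40-fold, inside the limit. *Pomt1* and *Tmem5* were the 2 genes past it, beside 29.9% of all genes. *Tmem5*, at its length in the table, where the median log2 ratio was -0.10, had 1.91. At its GENCODE length the median was 0.76, and *Tmem5* then stood at 2.22-fold, still past the limit. GENCODE lengths also exceeded those in the table for *Pomt1* (6442 against 2825 bases) and *Pomt2* (7954 against 5059). They did so too for *Pomgnt1* (5463 against 2912) and *Dag1* (6357 against 5961), and ratios at them were not computed. The length classes on either side of 6442 bases had medians of 0.79 and 0.85, near the log2 ratio of 0.88 for *Pomt1*. The call of *Pomt1* thus depends on the length used. At its length in the table, *Pomgnt1* kept a ratio below 1 and inside the limit under each of these scalings.

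**Figure D2:**
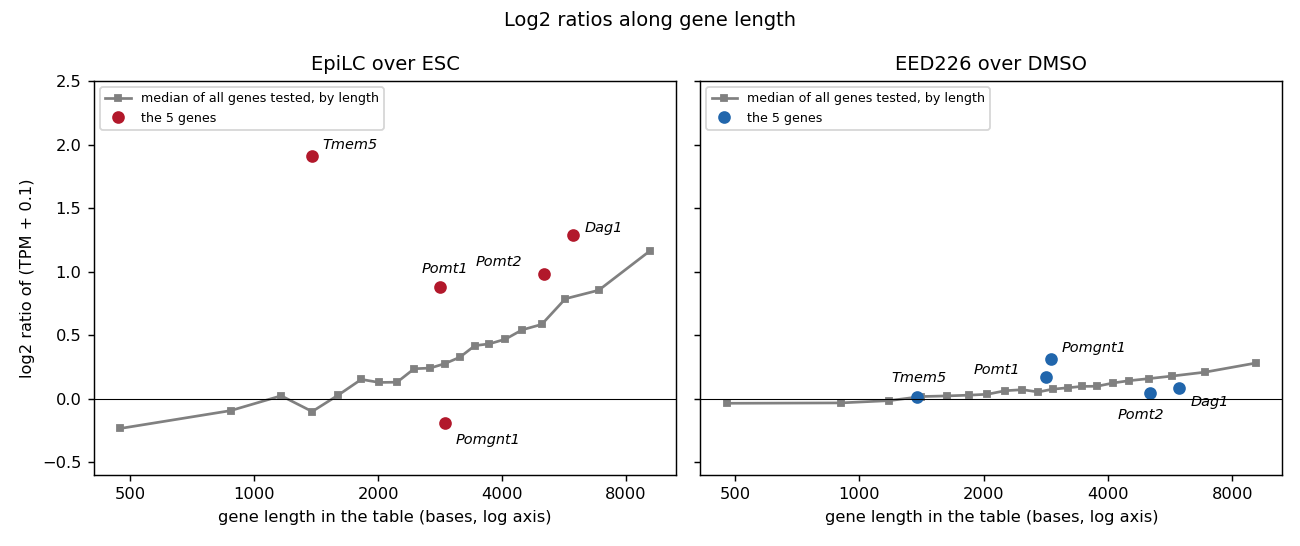
Log2 ratio of TPM (0.1 added) against gene length in the deposited table (log axis) for the 5 genes, with squares for the median of all genes tested in 20 length classes, for EpiLC over ESC (left) and EED226 over DMSO (right). *Tmem5* lies above the median of its length in the table in EpiLCs at 1.91 (the median at its longer GENCODE length is 0.76), *Dag1* and *Pomt2* lie nearer to theirs at 1.28 and 0.98, and *Pomgnt1* lies below at -0.19.

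Next, the effect of PRC2 inhibition was examined by comparing EED226- with DMSO-treated ESCs. None of the 5 genes passed 1.5-fold in either direction (0 of 5), against 5.63% of the 12763 genes tested upward and 1.09% downward. The ratios ran between 1.01 and 1.24, with a median log2 of 0.084 over the 5 genes and 0.085 over all genes tested.

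*Pomgnt1* had the largest of these ratios, with 34.0 TPM in EED226-treated cells and 27.4 TPM in DMSO-treated cells, from 2032 and 1404 reads (ratio 1.24, 1.16 to 1.33). *Pomt1* followed with 20.9 TPM under EED226 and 18.6 TPM under DMSO, from 1212 and 927 reads (1.12, 1.03 to 1.23). On the TPM scale both ratios exceeded 1 by more than counting error, but with size factors *Pomt1* stood at 1.05 (0.961 to 1.14) and *Pomgnt1* at 1.16 (1.08 to 1.24), and no error between cultures is known. *Dag1* had 86.5 TPM under EED226 and 81.5 TPM under DMSO (1.06, 1.03 to 1.09). Its ratio did not stay above 1 with size factors (0.989, close to 1) or with the length trend removed (0.933). For *Pomt2*, 10.7 TPM under EED226 and 10.4 TPM under DMSO gave 1.03 (0.941 to 1.12), and for *Tmem5*, 30.9 TPM under EED226 and 30.6 TPM under DMSO gave 1.01 (0.916 to 1.12). Differences for these 2 genes were not detectable at this depth, and the upper bounds of their intervals were both 1.12.

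The DMSO and ESC libraries give a view of how far the 5 transcripts differ between ESC cultures of unlike medium. DMSO over ESC was 1.41 for *Tmem5* (1.27 to 1.57), 1.27 for *Pomt2* (1.16 to 1.39), 1.01 for *Pomt1* (0.924 to 1.10), 0.867 for *Dag1* (0.844 to 0.891) and 0.715 for *Pomgnt1* (0.670 to 0.763). None passed 1.5-fold, against 28.6% of 12945 genes upward and 15.3% downward. *Pomgnt1* and *Tmem5* came closest to the limit, on opposite sides. This comparison and that of EpiLCs share the ESC library, and the one with EED226 shares the DMSO library, so their values are given side by side only.

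Further enzymes of the functional glycan on core M3 were then examined. Of 5 such genes, *Pomgnt2* and *Large2* were the 2 past the limit upward in EpiLCs against ESCs, and none passed it downward, beside 40.9% and 19.4% of all genes tested, so their share was that of the background. *Pomgnt2*, which starts core M3, had 340 reads in EpiLCs and 158 reads in ESCs (TPM ratio 3.32, 2.74 to 4.03). *Large2* (*Gyltl1b* in the table), which can build matriglycan, had 27.1 TPM in EpiLCs and 15.3 TPM in ESCs (1.77, 1.62 to 1.93). With size factors, as with the length trend removed, only 1 of the 5 passed.

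The other 3 stayed inside the limit. *Pomk*, the kinase that phosphorylates the mannose, had 11.4 TPM in EpiLCs and 8.85 TPM in ESCs (1.29, 1.16 to 1.44), and *B3galnt2*, which completes core M3, 13.9 TPM in EpiLCs and 14.4 TPM in ESCs (0.968, 0.884 to 1.06). *B4gat1*, which adds the glucuronic acid that primes matriglycan, had 12.8 TPM in EpiLCs and 14.6 TPM in ESCs (0.876, 0.773 to 0.993). It shares 85.3% of its exonic bases with another gene model on the same strand, so its count is uncertain. Against the ESC library the branch enzymes thus differed, with *Pomgnt2* of core M3 past the limit and *Pomgnt1* of core M1 below 1. DMSO-treated ESCs, at 6.53 TPM for *Pomgnt2* and 27.4 TPM for *Pomgnt1*, lay below EpiLCs (8.62 and 33.6 TPM) for both. The contrast therefore rests on the ESC library.

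Under EED226 none of the 5 passed the limit against DMSO. *Pomgnt2* had the largest ratio, with 7.16 TPM under EED226 and 6.53 TPM under DMSO (1.10, 0.939 to 1.28), and *B4gat1* the smallest at 0.931 (0.821 to 1.06), and both intervals hold 1. Between DMSO and ESC, however, *Pomgnt2* (2.51, 2.06 to 3.07), *B3galnt2* (1.78, 1.66 to 1.92) and *Pomk* (1.71, 1.55 to 1.88) were past the limit upward and none was downward. Beside them stood 28.6% of all genes tested upward and 15.3% downward. These transcripts thus also differed between the ESC cultures, as did many others.

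**Figure D3:**
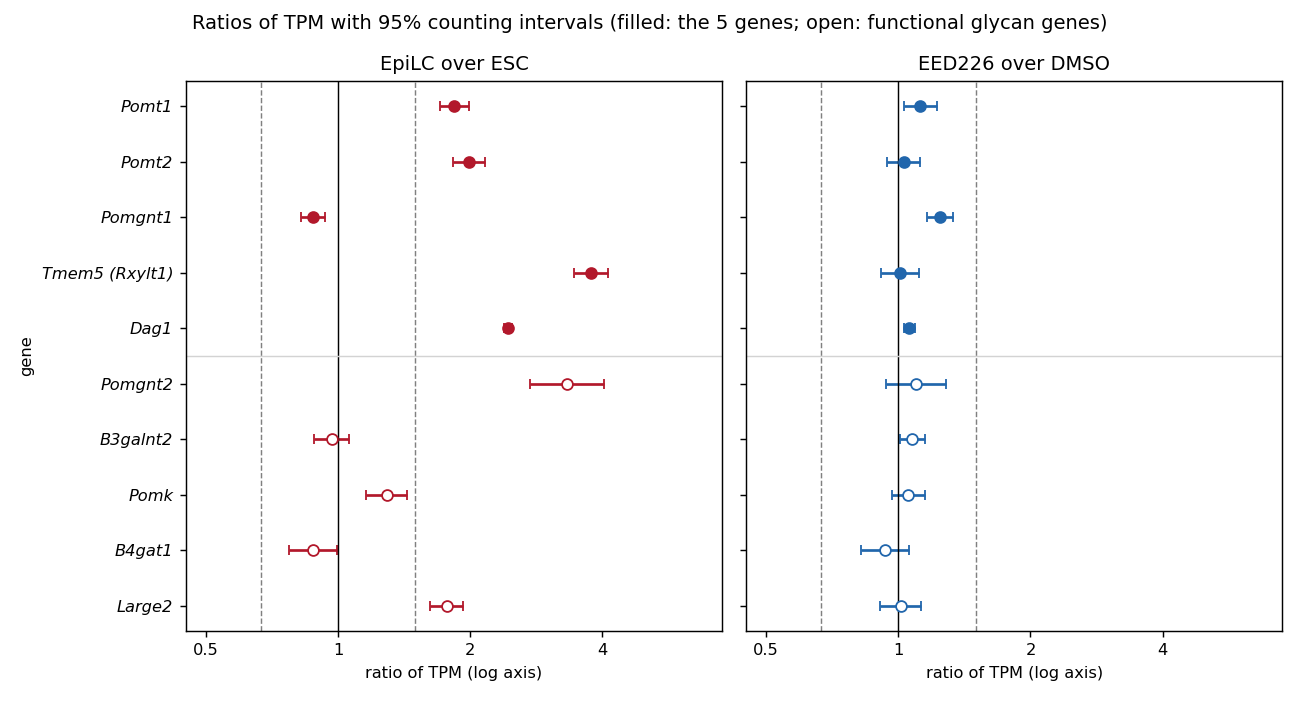
Ratio of TPM (log axis) with exact 95% counting intervals for the 5 genes (filled) and 5 functional glycan genes (open), for EpiLC over ESC (left) and EED226 over DMSO (right), with dashed lines at the 1.5-fold limit in both directions. On the left 6 of 10 genes lie past the upper line and on the right none of the 10 does.

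Transcripts of the enzymes that make activated mannose were examined next. Of 7 donor genes with at least 1 TPM, none passed the limit upward and 3 passed it downward in EpiLCs against ESCs (19.4% of all genes did), and the median log2 ratio was -0.39. *Gmppb*, which makes GDP-mannose, had 14.3 TPM in EpiLCs and 41.5 TPM in ESCs (0.345, 0.309 to 0.386), although 33.6% of its exonic bases overlap *Rnf123* on the opposite strand. *Mpi*, which makes mannose phosphate from fructose phosphate, had 40.5 TPM in EpiLCs and 72.4 TPM in ESCs (0.559, 0.521 to 0.600), and *Dolk*, the dolichol kinase, 6.38 TPM in EpiLCs and 10.8 TPM in ESCs (0.592, 0.502 to 0.696). The other 4, *Dpm2*, *Dpm3* (subunits of the dolichol phosphate mannose synthase), *Pmm2* (a phosphomannomutase) and *Gmppa* (a regulator of GMPPB), ranged between 0.762 and 0.955. With size factors 6 of the 7 genes fell past the limit downward.

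*Dpm1*, the catalytic subunit of that synthase, had only 17 reads in EpiLCs and 45 reads in ESCs, too few to pass the 1 TPM filter, and shares 895 exonic bases with another gene model on its strand. EED226 left all 7 other donor genes inside the limit, with ratios between 0.887 for *Mpi* and 1.23 for *Gmppa*. These donors also serve N-glycans and GPI anchors, so the list is not particular to dystroglycan.

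The remaining lists concern the glycans on core M1 and M2, other O-mannosyltransferases, and the partners of dystroglycan. For the extension of core M1 and M2, 4 of 6 genes passed the limit upward and 1 downward in EpiLCs against ESCs (40.9% and 19.4% of all genes), but 2 higher and 2 lower with size factors as with the length trend removed. *St3gal3*, a sialyltransferase, had 18.3 TPM in EpiLCs and 7.53 TPM in ESCs, *B4galt2*, a galactosyltransferase, 18.2 TPM in EpiLCs and 7.55 TPM in ESCs, and *B4galt1* 17.4 TPM in EpiLCs and 28.1 TPM in ESCs. DMSO over ESC was 1.48 for *St3gal3*, 1.68 for *B4galt2* and 0.764 for *B4galt1*. *Fut9*, a fucosyltransferase, was the only gene of this list past the limit under EED226, with 5.53 TPM against 3.52 TPM under DMSO (1.57, 1.44 to 1.72), a call that was lost with both other scalings.

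Of the O-mannosyltransferases that act on cadherins and plexins rather than on dystroglycan, 4 of 5 were at least 1.5-fold higher in EpiLCs than in ESCs, beside 40.9% of all genes, with a median log2 ratio of 1.80 against 0.33 for all genes. *Tmem260* had 2.91 TPM in EpiLCs and 0.375 TPM in ESCs, *Tmtc1* 5.46 TPM in EpiLCs and 0.906 TPM in ESCs, *Tmtc2* 1.24 TPM in EpiLCs and 0.285 TPM in ESCs and *Tmtc4* 16.5 TPM in EpiLCs and 7.77 TPM in ESCs. The first 3 lay below 1 TPM in ESCs and entered the count and the median only through EpiLCs. With a filter of 5 TPM in either library, 2 genes of the list were higher. DMSO over ESC was 2.79 for *Tmem260*, 1.94 for *Tmtc1* and 1.79 for *Tmtc2*, but 0.763 for *Tmtc4*. *Tmem260* was also the only gene of 4 past the limit under EED226, beside 5.63% of all genes upward. It had 1.87 TPM against 1.04 TPM under DMSO, from 200 and 96 reads (1.79, 1.40 to 2.31). With a filter of 5 TPM, 0 genes of the list passed the limit under EED226. The POMT pair and these other enzymes for O-mannose thus both included genes with higher levels in EpiLCs, as were 40.9% of all genes.

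Among genes of matriglycan-binding proteins and of the beta and gamma laminin chains, which join the binding alpha chains in 1 molecule but do not bind themselves, 4 of 8 passed the limit upward and 2 downward in EpiLCs against ESCs. These shares are near the 40.9% and 19.4% of all genes, and the counts were 2 higher and 5 lower with the length trend removed. *Lamb1*, a laminin beta chain, had 171 TPM in EpiLCs and 9.97 TPM in ESCs (17.2, 16.3 to 18.2), and *Lama5*, an alpha chain, 183 TPM in EpiLCs and 63.7 TPM in ESCs (2.87, 2.82 to 2.93). DMSO over ESC was 8.45 for *Lamb1* and 1.02 for *Lama5*, so *Lamb1* also differed strongly between the ESC cultures. *Lama1*, the alpha chain of early embryonic laminin, had 4.63 TPM in EpiLCs and 27.4 TPM in ESCs (0.169, 0.156 to 0.183), and *Nrxn2*, a neurexin, 3.96 TPM in EpiLCs and 1.10 TPM in ESCs. The alpha chains stood on opposite sides of the limit on the TPM scale, but *Lama5* was inside it at 1.09-fold with the length trend removed. EED226 brought none of the 8 past the limit.

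The complex that ties dystroglycan to the cytoskeleton had 6 of 10 genes past the limit upward and 1 downward in EpiLCs against ESCs, beside 40.9% and 19.4% of all genes, with a median log2 ratio of 1.80 against 0.33 for all genes. With the length trend removed 6 passed upward and 3 downward. *Dtna*, alpha-dystrobrevin, had 11.6 TPM in EpiLCs and 0.535 TPM in ESCs (21.8, 17.6 to 27.2), *Sgce*, epsilon-sarcoglycan, 56.5 TPM in EpiLCs and 5.55 TPM in ESCs (10.2, 8.90 to 11.7), and *Sntb1*, a syntrophin, 14.3 TPM in EpiLCs and 2.51 TPM in ESCs (5.72, 4.69 to 7.01). In ESCs *Dtna* lay below 1 TPM. DMSO over ESC was 7.36 for *Dtna*, 1.65 for *Sntb1* and 1.145 for *Sgce*, so *Dtna* also differed strongly between the ESC cultures. *Sgcz*, zeta-sarcoglycan, had 0 reads in EpiLCs and 128 reads in ESCs, where the exact interval of the ratio ends at 0.0451. It had only 2 reads each in the EED226 and DMSO libraries, so the ESC library stood apart from the other 3. None of the 9 genes tested passed the limit under EED226.

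**Figure D4:**
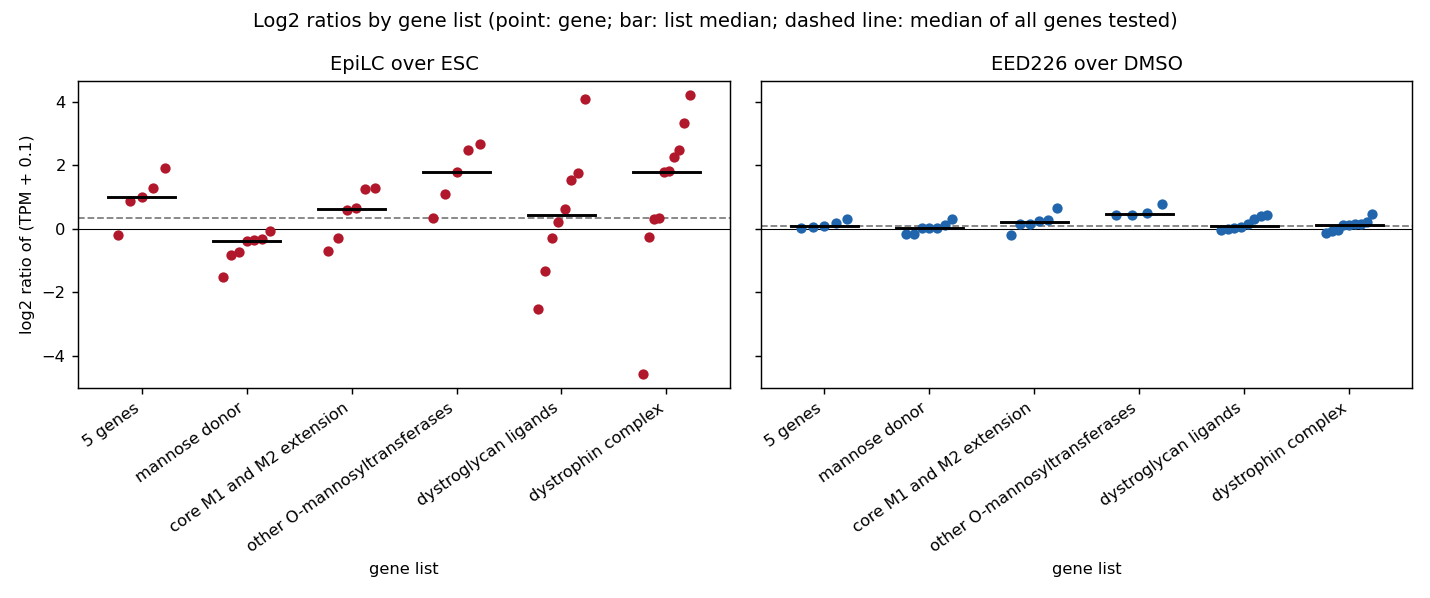
Log2 ratio of TPM (0.1 added) for each gene with at least 1 TPM in either library, by list, for EpiLC over ESC (left) and EED226 over DMSO (right), with a bar at each list's median and a dashed line at the median of all genes tested (0.33 left). In EpiLCs the median of the 5 genes is 0.98 and that of the mannose donor list is -0.39, while on the right the 5 genes lie between 0.01 and 0.31.

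Last, genes of the nearest pattern were sought for each of the 5 among 11201 other genes with at least 1 TPM in all 4 libraries, as the smallest of the largest deviation over the 4 libraries after centring each gene on its own log2 mean. They were *Zfp672* and *Pigv* for *Pomt1*, *Ythdc1* and *Mettl6* for *Pomt2*, *Pbk* and *1700037H04Rik* for *Pomgnt1*, *Slc9a8* and *Mxra7* for *Tmem5*, and *Rnd3* and *Mbd6* for *Dag1*, with deviations of 0.01 to 0.06. Patterns within 0.2 were shared by 400 genes for *Pomt1*, 475 for *Pomt2* and 378 for *Pomgnt1*, but by 79 each for *Tmem5* and *Dag1*. With only 4 libraries such likeness is a description.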

How the data were processed

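DNase-treated RNA went into TruSeq Stranded mRNA libraries, read singly over 100 bp. Tools in the processing notes of the submitters are featureCounts 1.6.2, STAR 2.6.0a, Bowtie2 2.2.4 and bcl2fastq 2.20, with mm10 as build. Neither the annotation nor the strand option of the counting is stated. The authors deposited 1 table of 24421 entries with gene length, the read count of each library and the TPM (counts per length, scaled to 1000000). TPM recomputed from the deposited counts matched. Left out were 2 entries that share 1 symbol.

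Ratios were taken from the deposited TPM, with exact Clopper-Pearson 95% intervals from the split of reads, levels with exact Poisson intervals, and a limit of 1.5-fold was applied to genes reaching 1 TPM in either library. Log2 ratios had 0.1 TPM added. No p-value was computed, since each condition had 1 library. Ratios were recomputed with CPM, median-of-ratios size factors, the length trend removed (20 length classes), centring on the median gene, pseudocounts of 0.01 and 1 TPM, limits of 1.25 and 2, no filter and a filter of 5 TPM. The scripts were tested on simulated counts. The genes and lists were chosen with earlier results of these data known. The text names the 5 genes, the functional glycan genes (some of that list are not reported here and were left out of its counts) and the mannose donor genes, up to 4 genes of each other list with the largest log2 ratio past the limit, and 2 genes of nearest pattern each. Analyses used Python 3.11.15, numpy 2.4.6, pandas 2.3.3 and scipy 1.17.1.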

Additional observations from a re-analysis of the deposited data

How the results depend on the processing

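No paired analysis was possible because each condition had 1 library, and for the same reason no library could be left out. Of 50 recomputed ratios of the 5 genes, 25 moved by more than counting error. For EpiLC over ESC, the ratio with CPM was 1.65 for *Pomt1*, 1.78 for *Pomt2*, 0.786 for *Pomgnt1*, 3.38 for *Tmem5* and 2.18 for *Dag1*. With size factors it was 1.43, 1.54, 0.679, 2.92 and 1.89 in the same order, and 1.57, 1.69, 0.746, 3.20 and 2.07 when centred. Length trend removed at the lengths in the table, it was 1.53 for *Pomt1*, 1.31 for *Pomt2*, 0.724 for *Pomgnt1*, 4.03 for *Tmem5* and 1.40 for *Dag1*. *Tmem5* alone was also computed at its GENCODE length, with 2.22. The median log2 ratio of the 5 was then 0.84 with CPM, 0.62 with size factors, 0.48 with the length trend removed and 0.76 centred. Past a 2-fold limit were 2 genes (29.5% of all), and past 1.5-fold with the length trend removed 2.

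For EED226 over DMSO, *Dag1* stood at 1.02 with CPM, 0.989 with size factors, 0.933 with the length trend removed and 1.01 centred, *Pomt2* at 0.922 with the length trend removed and *Pomgnt1* at 1.16 with size factors. The median log2 ratio was 0.036, -0.016, 0.004 and 0.008 under the same 4 scalings. None of the 5 passed 1.5-fold under any scaling.

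Over all genes, size factors put 29.7% past the limit downward in EpiLCs and 3.71% upward under EED226. Without a filter the EED226 shares were 15.0% upward and 7.64% downward, and at 5 TPM 2.71% and 0.288%. The scalings of these shares and of the list counts were chosen after seeing the data, as was the GENCODE length. With the length trend removed, *Hspg2* of the ligand list turned to 0.495 in EpiLCs over ESCs. In EpiLCs, 1 functional glycan gene was higher with size factors and 1 with the length trend removed. Size factors left 6 mannose donor genes lower, 2 core M1 and M2 genes higher and 2 lower, and 2 dystrophin complex genes lower. The length trend removed gave 2 higher and 2 lower for core M1 and M2, 2 higher and 5 lower for the ligands, and 3 lower for the dystrophin complex. At 5 TPM, 2 other O-mannosyltransferases were higher and 0 dystrophin complex genes lower, and without a filter 2 genes of that complex were lower. Under EED226, core M1 and M2 had 0 higher with both scalings, other O-mannosyltransferases 0 higher at 5 TPM, and, without a filter, the ligands had 2 higher and 1 lower and the dystrophin complex 1 higher and 2 lower. The causes were not tested. Spread between cultures is unknown, and *Dpm1* had the fewest reads among the named enzymes.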
